A study of Homo sapiens with 14 samples.

Results

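Interferon response and antigen presentation genes were followed across HEK 293 cells, an established human embryonic kidney line, in which CFIm25 or CFIm68, subunits of cleavage factor I, were lowered or raised. The list holds 47 genes taken by symbol, and the rule uses no measured value. Of these, 44 were matched to the 18006 genes of the count table, and HLA-B, HLA-C and HLA-E were not analysed here. The low-count filter left 32 of the 44 for testing, out of 12080 genes tested in all. The 14 libraries comprise 3 controls labelled wild type, 2 libraries with CFIm25 knockdown, 3 with CFIm68 knockdown, 3 with CFIm25 overexpression and 3 with CFIm68 overexpression. CFIm25 is the product of NUDT21 and CFIm68 that of CPSF6, and cleavage factor I takes part in choosing where pre-mRNA is cut and polyadenylated. Knockdown was by siRNA with Lipofectamine RNAiMAX, a cationic lipid reagent. The sources used here do not give how the proteins were overexpressed, whether an overexpressing line is 1 clone, or what siRNA or vector the controls were given. Separate cultures behind the replicates are not stated anywhere, so the p-values reflect only how far these libraries spread, and that spread may be technical.

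Interferons are secreted proteins that cells release on sensing foreign nucleic acid. RIG-I-like receptors detect RNA in the cytoplasm and act through IRF3 and IRF7 to switch on interferon genes. Type I interferon then binds its receptor and activates a transcription complex that holds STAT2 and IRF9 and binds a promoter motif called the interferon-stimulated response element, while type II interferon acts mainly at the gamma-activated site. The induced genes include antiviral effectors and parts of the pathway that loads peptides on MHC class I molecules. HEK 293 cells carry adenoviral early genes and are known for a muted innate response, and many of these genes keep a low basal level in unstimulated cells.

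Total counts were 15822467 to 33895308 per library, and within-group correlations of log2 CPM across genes were 0.996 to 0.998. CPM are counts scaled to a common library size by the TMM factors. The targeted genes followed the labels. NUDT21 fell by 3.26 on the log2 scale in CFIm25 knockdown and rose by 0.50 in CFIm25 overexpression, and CPSF6 fell by 2.69 in CFIm68 knockdown and rose by 1.45 in CFIm68 overexpression. NUDT21 also fell by 1.14 in CFIm68 knockdown, and CPSF6 rose by 0.99 in CFIm25 knockdown. All 7 markers of HEK 293 and kidney progenitor cells were above the filter, with summed levels of 1411 to 1826 CPM over the groups. Nearly all of that sum is VIM, KRT8, CDH2 and KRT18. In control, PAX2 had 30, 41 and 45 counts and NEFM 10, 8 and 4. Of 10 blood and immune markers, PTPRC and HBB were at 0 in every library and only CD14 and CD68 were tested. The summed level of these 10 was 12.3 to 12.5 CPM in control, 9.13 to 9.82 in CFIm25 knockdown, 6.42 to 7.85 in CFIm68 knockdown, 12.7 to 13.9 in CFIm25 overexpression and 20.01 to 23.7 in CFIm68 overexpression, and its part in the results was not tested. Nearly all of this sum is CD68, with 200, 203 and 203 counts in control and 269, 380 and 340 in CFIm68 overexpression. Of 7 mesenchymal markers COL1A2 and DCN were at 0, and their sum was 47.5 to 68.6 CPM outside CFIm68 overexpression and 25.3 to 28.7 in it. Most of that sum is COL1A1, and another of the 7, LUM, had 54, 52 and 35 counts in control but 1, 4 and 1 in CFIm25 overexpression and 0, 3 and 1 in CFIm68 overexpression. The sum of 5 keratinocyte and epithelial markers was 9.98 to 11.5 CPM in control, 13.6 to 22.2 in the knockdowns and CFIm25 overexpression and 8.91 to 10.4 in CFIm68 overexpression. The part of these in the results was not tested either.

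The list did not move as one block. Against control, BST2 rose in all 4 perturbed groups, OAS3, IFI35, PSMB9 and PARP9 rose with either knockdown and with CFIm25 overexpression but fell with CFIm68 overexpression, and the IFITM genes had their highest levels in CFIm68 overexpression. IRF9 and STAT2, which take part in the type I interferon transcription complex, fell with either knockdown and with CFIm25 overexpression. A test here is edgeR's quasi-likelihood test with Benjamini-Hochberg adjustment over the 12080 genes and a threshold of 0.05. In CFIm25 knockdown the test called 13 of the 32 members higher and 4 lower, and 15 were not called. Over all tested genes 24.4% rose and 23.2% fell in this comparison, 47.6% in all, against 53.1% of the members. In CFIm68 knockdown 12 rose and 7 fell, beside 28.3% and 28.1% of all genes, or 56.4% in either direction against 59.4% of the members. In CFIm25 overexpression 8 rose and 11 fell, beside 27.7% and 29.1% of all genes, or 56.7% against 59.4%. Taken in either direction, these shares of members called lie near those of all genes. The split by direction was less even than for all genes, most of all in CFIm25 knockdown with 13 higher and 4 lower. That split was not tested. In CFIm68 overexpression 4 rose and 12 fell, beside 14.5% and 15.4% of all genes, so that 50% of the members and 29.8% of all genes were called. The difference between these shares was not tested. The libraries of the perturbed group and of control did not overlap for 19 members with CFIm25 knockdown, 20 with CFIm68 knockdown, 20 in CFIm25 overexpression and 19 in CFIm68 overexpression, where 64.1%, 64.4%, 57.8% and 40% of all tested genes did not overlap either.

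The median log2 change of the tested members was 0.10 with CFIm25 knockdown, 0.08 with CFIm68 knockdown, 0.00 in CFIm25 overexpression and -0.15 in CFIm68 overexpression, with the medians of all tested genes between 0.00 and 0.01. Changes of at least 1.5-fold that passed the test were seen for 10 members in each knockdown, 9 in CFIm25 overexpression and 11 in CFIm68 overexpression. Over all genes, 12.2%, 16.4%, 16.1% and 5.79% changed by that much in CFIm25 knockdown, CFIm68 knockdown, CFIm25 overexpression and CFIm68 overexpression. The 4 comparisons use the same 3 control libraries, so a control library that is high or low for a gene enters each of them. In bulk RNA, a change in the number of cells that express a gene cannot be told apart from a change in its RNA per cell.

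**Figure D1:**
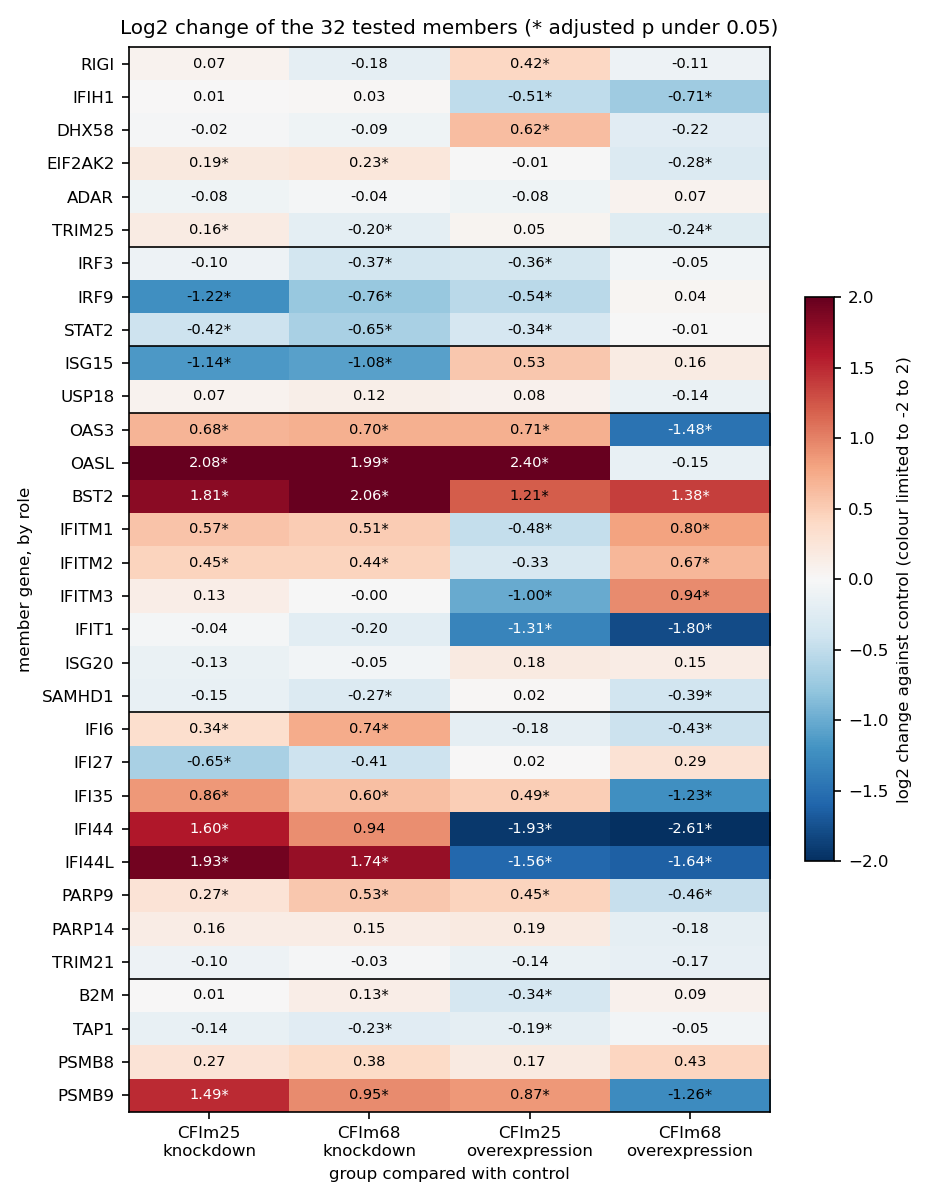
Log2 change against control (colour, limited to -2 to 2) of the 32 tested members, ordered by role, in the 4 perturbed groups, with a star where the adjusted p was under 0.05. BST2 was higher in all 4 columns, from 1.21 to 2.06, while ADAR passed in none.

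The promoters of the list carry the motif that defines much of the interferon response. Promoter windows of 250 bases before to 50 bases after the gene start were taken from RefSeq on GRCh38.p14, and 36 members had one. The response element core was searched on both strands as GAAA, any 2 bases and GAAA again, which reads TTTC, any 2 bases and TTTC on the opposite strand, and the gamma-activated site as TTCNNNGAA, which is its own reverse complement. The core was in 20 of the 36 windows, or 55.6%, against 3.57% of all 35116 windows. The gamma-activated site was in 8, or 22.2%, against 7.66%. IFIT2, IFITM2, MX2, OAS2, OASL, IRF3, IRF7, DHX58, TRIM22, USP18 and HLA-E had no window. The stretches are 30 bases each, 5′ to 3′ on the strand of the gene, with the motif in capitals, and are shown as examples from members whose values are given further on. The other members with the core are not printed. They are IFI27, IFI44, IFIT1, IFIT3, IFIT5, MX1, IFIH1, TRIM21, ISG20, PARP14, TAP1, B2M and EIF2AK2. A match is a description of the letters and not a measured binding site.
BST2, chr19:17405741-17405770, minus strand: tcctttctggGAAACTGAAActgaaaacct
OAS3, chr12:112938452-112938481, plus strand: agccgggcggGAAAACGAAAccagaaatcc
IFITM1, chr11:314024-314053, plus strand: acacttctgaGAAACTGAAAcgacagggga
IFITM3, chr11:320876-320905, minus strand: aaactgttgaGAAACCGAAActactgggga
ISG15, chr1:1013374-1013403, plus strand: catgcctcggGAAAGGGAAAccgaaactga
IFI6 first copy, chr1:27672329-27672358, minus strand: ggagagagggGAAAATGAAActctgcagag
IFI6 second copy, chr1:27672288-27672317, minus strand: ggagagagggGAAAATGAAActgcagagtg
IFI44L, chr1:78620274-78620303, plus strand: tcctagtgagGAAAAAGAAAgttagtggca
The stretches of IFI6 lie 41 bases apart and share their first 22 bases, and that of IFI44L occurs again, letter for letter, 91 bases downstream. For IFI35 and IRF9 the window held the gamma-activated site and no response element core.
IFI35, chr17:43006751-43006780, plus strand: aaggcagggatTTCACGGAAatgaaagtgg
IRF9, chr14:24161191-24161220, plus strand: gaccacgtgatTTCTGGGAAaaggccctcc

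Genes with the same core in their promoters went different ways. Among the 27 tested members with a window, 17 held the core and 10 did not. In CFIm25 knockdown 7 of the 17 rose and 2 fell, and of the other 10, 4 rose and 2 fell. In CFIm68 knockdown 7 of the 17 rose and 2 fell, with 3 and 4 of the 10. In CFIm25 overexpression 2 of the 17 rose and 8 fell, with 4 and 2 of the 10, and in CFIm68 overexpression 3 rose and 7 fell, with 0 and 5 of the 10. Over all tested genes the shares that rose and fell were 24.4% and 23.2% with CFIm25 knockdown, 28.3% and 28.1% with CFIm68 knockdown, 27.7% and 29.1% in CFIm25 overexpression and 14.5% and 15.4% in CFIm68 overexpression. The medians of the 17 were 0.13, 0.13, -0.18 and -0.17 in that order of comparisons, and those of the 10 were 0.11, -0.11, 0.11 and -0.18. No difference between the groups with and without the core was tested.

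Of the 6 genes grouped here as RNA sensors and kinases, TRIM25 and ADAR are neither. All 6 were tested, and IFIH1 and DHX58 had called changes of at least 1.5-fold. RIGI, which detects RNA with a triphosphate end, had 20.2, 21.2 and 19.0 CPM in control and 28.6, 25.1 and 26.8 in CFIm25 overexpression, with no overlap. It rose by 0.42 ± 0.08 (log2 change ± SE, adjusted p = 7.3e-05) there and did not pass in the other comparisons with control, where its changes were 0.07, -0.18 and -0.11. IFIH1, the sensor MDA5 for long double-stranded RNA, had 2.27, 2.02 and 2.38 CPM in control, 1.67, 1.64 and 1.33 in CFIm25 overexpression and 1.49, 1.06 and 1.57 in CFIm68 overexpression. Both overexpression groups lay below control in every library. The fall was -0.51 ± 0.21 (adjusted p = 0.036) with CFIm25 and -0.71 ± 0.22 (adjusted p = 0.015) with CFIm68. Neither call held in every alternative: the first was lost with DESeq2 (adjusted p = 0.091) and without replicate 1 or 3 of either group compared (adjusted p of 0.050 to 0.12), and the second without CFIm68 overexpression replicate 2 (adjusted p = 0.11). With the median change of the 50 nearest tested genes on the chromosome removed, they were -0.25 (adjusted p = 0.32) and -0.56 (adjusted p = 0.074). DHX58, the third receptor of this family, had 1.59, 1.15 and 1.39 CPM in control against 1.93, 2.49 and 1.97 in CFIm25 overexpression. It rose there by 0.62 ± 0.22 (adjusted p = 0.019), a call lost with DESeq2 (adjusted p = 0.053), without control replicate 2 (adjusted p = 0.085), without CFIm25 overexpression replicate 2 (adjusted p = 0.083) and with the medians of its neighbours removed (0.43, adjusted p = 0.11).

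EIF2AK2, the kinase PKR that halts translation on binding double-stranded RNA, had 95.4, 87.6 and 82.3 CPM in control, 103 and 99.1 with CFIm25 knockdown, 107, 103 and 101 with CFIm68 knockdown and 79.5, 71.8 and 67.9 in CFIm68 overexpression. Both knockdown groups lay above control and CFIm68 overexpression below it. Its changes were 0.19 (adjusted p = 0.031), 0.23 (adjusted p = 0.0032) and -0.28 (adjusted p = 0.0024). The first call was lost without control replicate 2 or 3 or either knockdown library (adjusted p of 0.072 to 0.16). With neighbour medians removed the first change was 0.14 (adjusted p = 0.12) and the last -0.02 (adjusted p = 0.89). TRIM25, a ubiquitin ligase that acts on RIG-I, rose by 0.16 in CFIm25 knockdown (adjusted p = 0.042, lost without any 1 of the 5 libraries compared) and fell by 0.20 in CFIm68 knockdown (adjusted p = 0.0052) and by 0.24 in CFIm68 overexpression (adjusted p = 0.0026). The last was -0.09 (adjusted p = 0.32) with neighbour medians removed. ADAR, which edits adenosine to inosine in double-stranded RNA, had 851 to 868 CPM in control and group means between 813 and 901. It changed by -0.08, -0.04, -0.08 and 0.07 in CFIm25 knockdown, CFIm68 knockdown, CFIm25 overexpression and CFIm68 overexpression, and passed in none of these.

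Among the transcription factors, IRF9 and STAT2 had their lowest levels in the knockdowns. IRF9, the DNA-binding part of the type I interferon complex, lies at chr14:24161053-24166565 on hg38. Its levels were 13.0, 15.5 and 17.3 CPM in control, 6.27 and 6.80 with CFIm25 knockdown, 8.97, 9.30 and 8.74 with CFIm68 knockdown, 10.04, 12.0 and 9.56 in CFIm25 overexpression and 14.4, 16.2 and 16.6 in CFIm68 overexpression. Every knockdown and CFIm25 overexpression library lay below every control, and CFIm68 overexpression overlapped control. IRF9 was 2.33-fold lower in CFIm25 knockdown (-1.22 ± 0.12, adjusted p = 4.8e-09), 1.70-fold lower in CFIm68 knockdown (-0.76 ± 0.10, adjusted p = 4.6e-07) and 1.45-fold lower in CFIm25 overexpression (-0.54 ± 0.11, adjusted p = 9.7e-05). In CFIm68 overexpression the change was 0.04 ± 0.10 (adjusted p = 0.79). Exons of IRF9 share bases with AL136295.5 on the same strand, so the counting could have split reads between them.

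STAT2, which joins IRF9 in that complex, had 70.7, 74.9 and 73.7 CPM in control, 53.4 and 56.1 with CFIm25 knockdown, 44.2, 48.0 and 48.0 with CFIm68 knockdown, 56.4, 55.8 and 61.1 in CFIm25 overexpression and 67.7, 75.1 and 74.3 in CFIm68 overexpression. The same 3 groups as for IRF9 lay wholly below control. STAT2 changed by -0.42 ± 0.07 (adjusted p = 1.0e-05), -0.65 ± 0.06 (adjusted p = 4.4e-10) and -0.34 ± 0.06 (adjusted p = 2.4e-05) in these, and by -0.01 ± 0.06 (adjusted p = 0.89) in CFIm68 overexpression. IRF3, which switches on interferon genes after RNA sensing, had 10.2, 8.85 and 12.8 CPM in control, 7.64, 8.89 and 8.13 in CFIm68 knockdown and 9.61, 7.81 and 7.19 in CFIm25 overexpression. The groups overlapped, and its falls of -0.37 (adjusted p = 0.011) and -0.36 (adjusted p = 0.019) were both lost without control replicate 3, at -0.22 (adjusted p = 0.16) and -0.20 (adjusted p = 0.21). The first was also lost without CFIm68 knockdown replicate 1 (adjusted p = 0.054), and the second without CFIm25 overexpression replicate 2 (adjusted p = 0.063) or 3 (adjusted p = 0.099) and with neighbour medians removed (-0.11, adjusted p = 0.51). IRF7 had 0 to 5 counts and IRF1 1 to 5 counts per library, and neither was tested.

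ISG15, a ubiquitin-like protein that is attached to other proteins during the interferon response, had few reads. Its levels were 1.70, 1.75 and 1.28 CPM in control, 0.999 and 0.509 with CFIm25 knockdown, 0.477, 1.11 and 0.688 with CFIm68 knockdown, 1.67, 2.49 and 2.84 in CFIm25 overexpression and 1.49, 1.67 and 2.13 in CFIm68 overexpression. Both knockdown groups lay below control in every library. ISG15 fell by 1.14 ± 0.34 (adjusted p = 0.0071) in CFIm25 knockdown and by 1.08 ± 0.31 (adjusted p = 0.0038) in CFIm68 knockdown. Without CFIm25 knockdown replicate 2 the first was -0.65 (adjusted p = 0.22). The 50 tested genes nearest to ISG15 on the chromosome had median changes of -0.54 and -0.53 in these comparisons, and with those medians removed the changes were -0.60 (adjusted p = 0.16) and -0.55 (adjusted p = 0.14). USP18, the protease that removes ISG15 from proteins, had 25.8 to 33.3 CPM over the 14 libraries and did not pass against control, with changes of 0.07, 0.12, 0.08 and -0.14 in the 2 knockdowns and then the 2 overexpressions, CFIm25 first.

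Of the antiviral effectors, 9 of 17 were tested. In CFIm25 knockdown 5 of the 9 rose and 0 fell, beside 24.4% and 23.2% of all genes, and in CFIm68 knockdown 5 rose and 1 fell, beside 28.3% and 28.1%. The 5 include IFITM2 in each knockdown, whose calls were lost in several alternatives given further on. BST2, or tetherin, which holds budding virus particles on the cell surface, lies at chr19:17402939-17405648 on the minus strand. It had 2.67, 3.93 and 2.72 CPM in control, 11.6 and 10.4 with CFIm25 knockdown, 13.9, 12.6 and 12.4 with CFIm68 knockdown, 7.03, 8.09 and 6.49 in CFIm25 overexpression and 7.80, 8.18 and 8.28 in CFIm68 overexpression. All 11 perturbed libraries lay above all 3 controls, and the knockdowns lay above the overexpressions. BST2 was 3.50-fold higher in CFIm25 knockdown (1.81 ± 0.14, adjusted p = 5.7e-11) and 4.16-fold higher in CFIm68 knockdown (2.06 ± 0.13, adjusted p = 1.6e-13). It was 2.31-fold higher in CFIm25 overexpression (1.21 ± 0.15, adjusted p = 5.8e-08) and 2.60-fold higher in CFIm68 overexpression (1.38 ± 0.15, adjusted p = 3.4e-08). BST2 was the only one of the 32 tested members called higher in all 4 comparisons, which share their controls. Removing the median change of its 50 neighbours left 1.69, 1.87, 1.11 and 1.60 in the same order. Its promoter window, from RefSeq, is given whole, at chr19:17405581-17405880 on the minus strand of GRCh38.p14, with 2 overlapping response element cores in capitals. The window also holds 2 matches to the gamma-activated site, which are not marked, and the first of them overlaps the first core.
BST2 promoter: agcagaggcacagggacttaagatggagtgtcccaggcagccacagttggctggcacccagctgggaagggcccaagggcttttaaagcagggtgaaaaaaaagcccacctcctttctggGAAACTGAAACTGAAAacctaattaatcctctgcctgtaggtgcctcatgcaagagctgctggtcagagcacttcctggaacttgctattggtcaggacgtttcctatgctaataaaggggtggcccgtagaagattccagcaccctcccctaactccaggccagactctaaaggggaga

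OAS3, which makes the 2′,5′-linked oligoadenylates that activate RNase L, lies at chr12:112938352-112973249. It had 14.6, 14.9 and 12.9 CPM in control, 21.9 and 23.4 with CFIm25 knockdown, 22.4, 23.6 and 23.1 with CFIm68 knockdown, 22.5, 24.5 and 22.3 in CFIm25 overexpression and 4.74, 5.18 and 5.27 in CFIm68 overexpression. The knockdown and CFIm25 overexpression libraries all lay above control, and the CFIm68 overexpression libraries all lay below it. OAS3 was 1.60-fold higher in CFIm25 knockdown (0.68 ± 0.09, adjusted p = 2.7e-07), 1.63-fold higher in CFIm68 knockdown (0.70 ± 0.08, adjusted p = 1.6e-08) and 1.63-fold higher in CFIm25 overexpression (0.71 ± 0.08, adjusted p = 2.6e-08). It was 2.79-fold lower in CFIm68 overexpression (-1.48 ± 0.10, adjusted p = 9.0e-12). The related OAS1 and OAS2 were listed at 0 in every library. OASL, an OAS-like protein without synthetase activity, had 3 to 5 counts in the controls, 19 and 30 with CFIm25 knockdown, 17 to 29 with CFIm68 knockdown, 13 to 28 in CFIm25 overexpression and 1 to 4 in CFIm68 overexpression. Its fitted rises were 2.08 ± 0.44 (adjusted p = 3.4e-04), 1.99 ± 0.42 (adjusted p = 2.3e-04) and 2.40 ± 0.42 (adjusted p = 1.8e-05), and CFIm68 overexpression overlapped control.

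**Figure D2:**
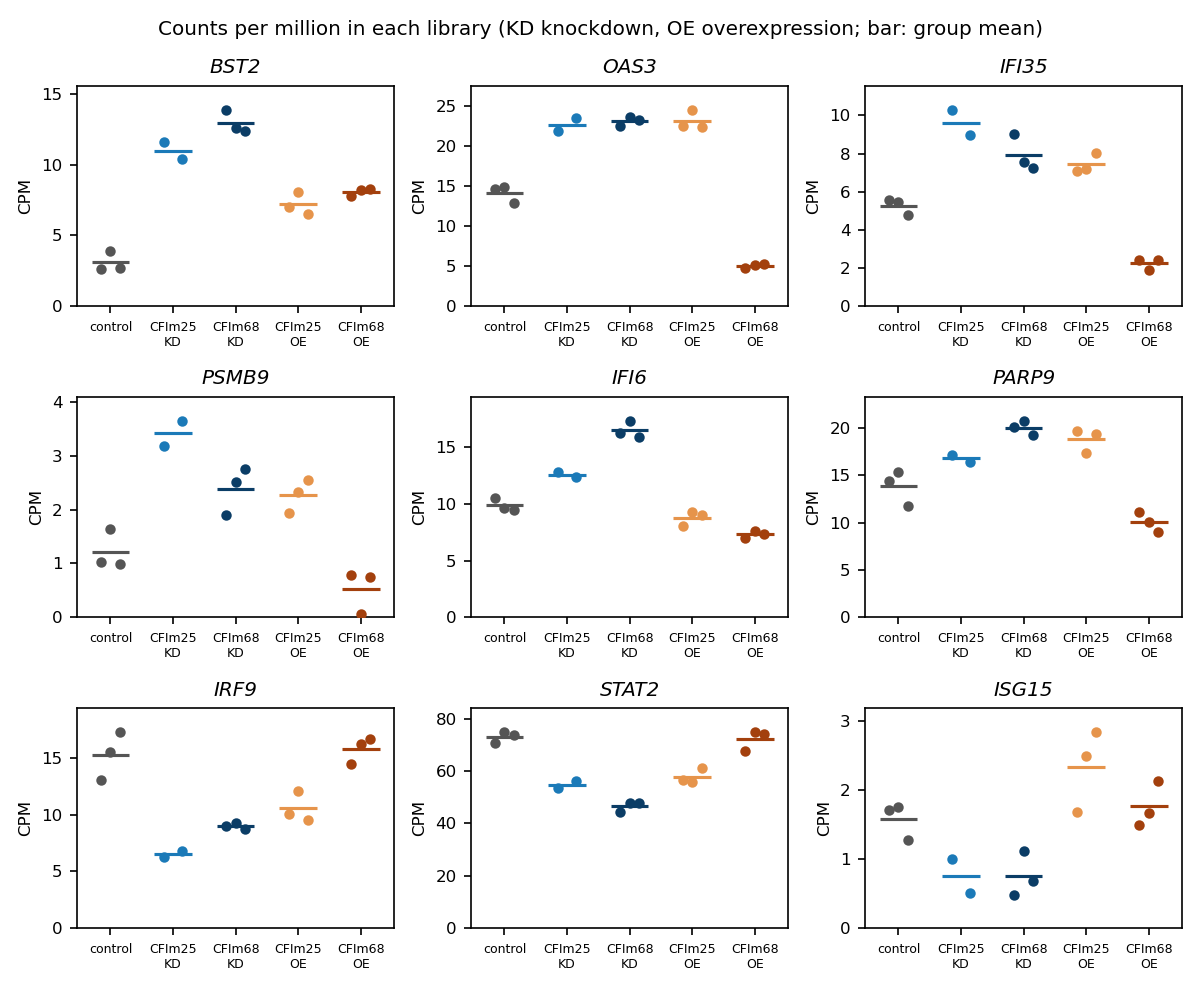
CPM of BST2, OAS3, IFI35, PSMB9, IFI6, PARP9, IRF9, STAT2 and ISG15, 1 panel per gene, with a point per library in each of the 5 groups and a bar for the group mean (KD, knockdown; OE, overexpression). BST2 was lowest in control, from 2.67 to 3.93 CPM, whereas OAS3 was lowest in CFIm68 overexpression, from 4.74 to 5.27 CPM.

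The IFITM genes encode small membrane proteins that block entry of enveloped viruses, and they lie side by side on chromosome 11. IFITM1, at chr11:313506-315272, had 6.13, 5.79 and 4.82 CPM in control, 8.26 and 8.33 with CFIm25 knockdown, 7.70, 8.44 and 7.81 with CFIm68 knockdown, 4.55, 3.90 and 3.42 in CFIm25 overexpression and 8.84, 10.02 and 10.2 in CFIm68 overexpression. CFIm25 overexpression lay below control in every library, and the other 3 groups lay above it. IFITM1 rose by 0.57 ± 0.13 (adjusted p = 5.7e-04), 0.51 ± 0.12 (adjusted p = 5.4e-04) and 0.80 ± 0.12 (adjusted p = 1.3e-05) in CFIm25 knockdown, CFIm68 knockdown and CFIm68 overexpression, and fell by 0.48 ± 0.14 (adjusted p = 0.0043) in CFIm25 overexpression. IFITM2 had 3.63, 2.73 and 3.33 CPM in control, 4.81 and 4.07 with CFIm25 knockdown, 4.74, 3.83 and 4.53 with CFIm68 knockdown, 2.75, 2.38 and 2.55 in CFIm25 overexpression and 4.09, 5.07 and 6.21 in CFIm68 overexpression. Its rise of 0.67 ± 0.17 in CFIm68 overexpression (adjusted p = 0.0031) held in every alternative. Its rises of 0.45 (adjusted p = 0.037) and 0.44 (adjusted p = 0.021) in the CFIm25 and CFIm68 knockdowns did not, with adjusted p = 0.16 and 0.12 without control replicate 2. The call in CFIm25 knockdown was also lost with DESeq2 (adjusted p = 0.069), without control replicate 3 (adjusted p = 0.059) and without CFIm25 knockdown replicate 1 (adjusted p = 0.22). The call in CFIm68 knockdown was also lost without replicate 1 (adjusted p = 0.094) or 3 (adjusted p = 0.060) of that group.

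IFITM3, on the opposite strand, had 1.82, 1.58 and 1.66 CPM in control, 1.54 and 2.07 with CFIm25 knockdown, 1.60, 1.89 and 1.58 with CFIm68 knockdown, 0.987, 0.566 and 0.927 in CFIm25 overexpression and 3.05, 2.84 and 3.89 in CFIm68 overexpression. The knockdowns overlapped control, with changes of 0.13 ± 0.23 and 0.00 ± 0.20, and the overexpressions lay on either side of it. IFITM3 was 2.002-fold lower in CFIm25 overexpression (-1.001 ± 0.26, adjusted p = 0.0019) and 1.92-fold higher in CFIm68 overexpression (0.94 ± 0.21, adjusted p = 9.1e-04). The chromosomal neighbours of the 3 genes moved as well. Around IFITM1 the median change of the 50 nearest tested genes was -0.39 in CFIm25 overexpression and 0.17 in CFIm68 overexpression, and -0.34 and -0.30 in the CFIm25 and CFIm68 knockdowns. With such medians removed, the fall in CFIm25 overexpression was -0.09 (adjusted p = 0.61) for IFITM1 and -0.62 (adjusted p = 0.052) for IFITM3, and the rise in CFIm68 overexpression was 0.62, 0.50 and 0.78 for IFITM1, IFITM2 and IFITM3, with adjusted p of 4.4e-04, 0.033 and 0.0076. The 3 genes are close paralogs, and the exons of IFITM1 and IFITM2 share bases on the same strand, so the split of reads among them is uncertain.

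**Figure D3:**
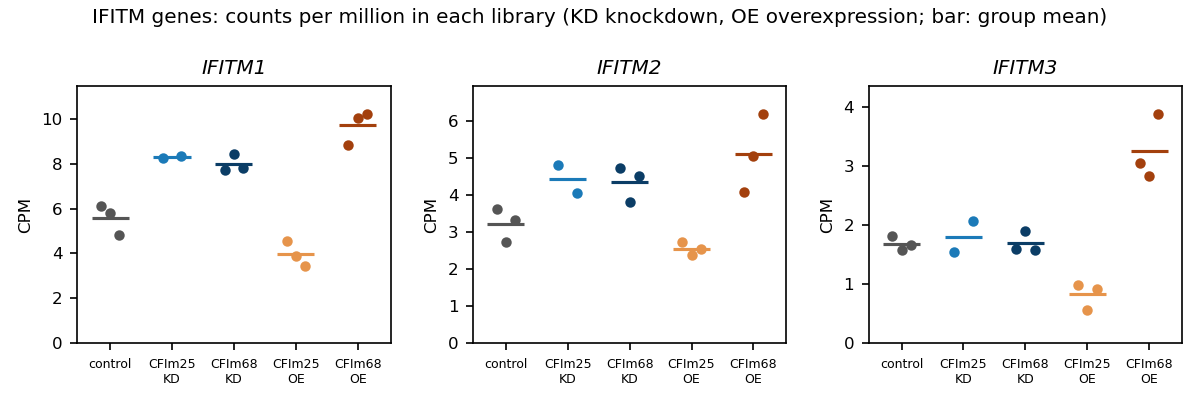
CPM of IFITM1, IFITM2 and IFITM3 in the 14 libraries, with a point per library and a bar for the group mean. IFITM3 was at 2.84 to 3.89 CPM in CFIm68 overexpression and at 0.566 to 0.987 CPM in CFIm25 overexpression, with control between.

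The other antiviral effectors had less to show or fewer reads. SAMHD1, which depletes the nucleotides that retroviruses need, had 184, 163 and 184 CPM in control, 148, 143 and 149 in CFIm68 knockdown and 144, 129 and 133 in CFIm68 overexpression. Both CFIm68 groups lay below control, with falls of 0.27 ± 0.06 (adjusted p = 2.1e-04) and 0.39 ± 0.06 (adjusted p = 8.3e-06). IFIT1, which binds RNA lacking cap methylation, had 11, 13 and 11 counts in control, 11 and 24 with CFIm25 knockdown, 15, 15 and 14 with CFIm68 knockdown, 6, 5 and 4 in CFIm25 overexpression and 1, 3 and 5 in CFIm68 overexpression. Both overexpression groups were below control in every library, with fitted falls of 1.31 ± 0.42 (adjusted p = 0.0087) and 1.80 ± 0.47 (adjusted p = 0.0046). ISG20, an exonuclease, passed in none of the comparisons, with 8 to 34 counts per library. IFIT3, OAS1 and OAS2 among the effectors, and SP100 and XAF1 among the other induced genes, were at 0 in every library. A count of 0 allows up to 3 counts, or 0.0898 to 0.195 CPM depending on the library, for counting error only. HSPA8, a chaperone abundant in most cells, was also listed at 0 in all 14 libraries. A 0 here therefore need not mean that a gene was off, and whether these members were off was not tested. MX1 had 0 to 6 counts per library, IFIT2 0 to 3, TRIM22 0 to 8, IFIT5 3 to 15 and MX2 at most 1, too few to test.

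Of the other induced genes, 8 of 10 were tested. IFI35, a cytoplasmic protein of the interferon response, lies at chr17:43006725-43014456. It had 5.56, 5.46 and 4.77 CPM in control, 10.3 and 8.95 with CFIm25 knockdown, 9.03, 7.57 and 7.24 with CFIm68 knockdown, 7.08, 7.18 and 8.06 in CFIm25 overexpression and 2.40, 1.89 and 2.45 in CFIm68 overexpression. As with OAS3, 3 groups lay above control in every library and CFIm68 overexpression below. IFI35 was 1.82-fold higher in CFIm25 knockdown (0.86 ± 0.13, adjusted p = 4.7e-06), 1.52-fold higher in CFIm68 knockdown (0.60 ± 0.12, adjusted p = 1.5e-04) and 1.41-fold higher in CFIm25 overexpression (0.49 ± 0.13, adjusted p = 0.0019). It was 2.35-fold lower in CFIm68 overexpression (-1.23 ± 0.17, adjusted p = 2.2e-06). PARP9, a partner of the ubiquitin ligase DTX3L, had 14.4, 15.3 and 11.8 CPM in control, 17.2 and 16.4 with CFIm25 knockdown, 20.1, 20.8 and 19.3 with CFIm68 knockdown, 19.7, 17.4 and 19.4 in CFIm25 overexpression and 11.2, 10.1 and 8.97 in CFIm68 overexpression. Here too 3 groups lay above control in every library, with CFIm68 overexpression below. PARP9 changed by 0.27 ± 0.10 (adjusted p = 0.029), 0.53 ± 0.09 (adjusted p = 1.6e-05), 0.45 ± 0.09 (adjusted p = 2.3e-04) and -0.46 ± 0.11 (adjusted p = 0.0015) in CFIm25 knockdown, CFIm68 knockdown, CFIm25 overexpression and CFIm68 overexpression. The first call was lost without control replicate 3 (0.17, adjusted p = 0.18) and without CFIm25 knockdown replicate 1 (adjusted p = 0.13) or 2 (adjusted p = 0.071). The 50 genes around PARP9 had median changes of 0.21, 0.18, 0.36 and -0.14, and with these removed the changes were 0.06 (adjusted p = 0.65), 0.35 (adjusted p = 0.0019), 0.09 (adjusted p = 0.45) and -0.32 (adjusted p = 0.031). Exons of PARP9 share bases with DTX3L on the other strand.

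IFI6, a mitochondrial and endoplasmic reticulum protein that limits cell death, had 10.6, 9.67 and 9.43 CPM in control, 12.8 and 12.3 with CFIm25 knockdown, 16.3, 17.3 and 15.9 with CFIm68 knockdown, 8.02, 9.28 and 9.04 in CFIm25 overexpression and 6.95, 7.63 and 7.34 in CFIm68 overexpression. The knockdowns lay above control and both overexpressions below. It rose by 0.34 ± 0.10 (adjusted p = 0.0062) and 0.74 ± 0.09 (adjusted p = 5.7e-08) in the CFIm25 and CFIm68 knockdowns and fell by 0.43 ± 0.11 (adjusted p = 0.0025) in CFIm68 overexpression, while the change of -0.18 ± 0.10 in CFIm25 overexpression did not pass (adjusted p = 0.13). IFI27, a small hydrophobic protein of the same family, had 1.47, 1.75 and 1.61 CPM in control and 0.953 and 1.08 in CFIm25 knockdown. Its fall of 0.65 ± 0.24 there (adjusted p = 0.031) was lost with DESeq2 (adjusted p = 0.089) and without control replicate 2 or 3 or either knockdown library (adjusted p of 0.054 to 0.13), and its other changes did not pass.

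The neighbours IFI44 and IFI44L, on chromosome 1, had the widest spans between group means of the 32 tested members, at few reads. IFI44L had 7, 11 and 10 counts in control, 48 and 62 with CFIm25 knockdown, 47, 56 and 34 with CFIm68 knockdown, 6, 2 and 2 in CFIm25 overexpression and 3, 0 and 5 in CFIm68 overexpression. The knockdowns lay above control and the overexpressions below it. Its fitted rises in the CFIm25 and CFIm68 knockdowns were 1.93 ± 0.34 (adjusted p = 3.4e-05) and 1.74 ± 0.33 (adjusted p = 4.6e-05). Its fitted falls with CFIm25 and CFIm68 overexpression were -1.56 (adjusted p = 0.020) and -1.64 (adjusted p = 0.039), and both were lost without control replicate 2 (adjusted p = 0.062 and 0.10) or 3 (adjusted p = 0.051 and 0.086). The first was also lost without replicate 2 or 3 of its group (adjusted p = 0.064 and 0.059), and the second without replicate 1 (adjusted p = 0.060) or 2 (-1.01, adjusted p = 0.21). IFI44 had 5, 7 and 3 counts in control, 22 and 25 with CFIm25 knockdown, 13, 22 and 7 with CFIm68 knockdown, 1, 0 and 3 in CFIm25 overexpression and 1, 1 and 0 in CFIm68 overexpression. It rose by 1.60 ± 0.48 in CFIm25 knockdown (adjusted p = 0.0078), a call lost without replicate 1 of that group (1.41, adjusted p = 0.060). With so few counts the fitted falls in the overexpressions, -1.93 (adjusted p = 0.048) and -2.61 (adjusted p = 0.042), depend on the prior count and are no measure of size, and both were lost with DESeq2 (adjusted p = 0.060 and 0.063), without control replicate 1 or 2 and without most of the overexpression libraries in turn. PARP14 and TRIM21 did not pass in any comparison with control.

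Of the antigen presentation genes, 4 of 7 were tested. PSMB9 encodes the immunoproteasome subunit LMP2, which cuts proteins into peptides for MHC class I, and lies at chr6:32844136-32859585. It had 1.02, 1.64 and 0.998 CPM in control, 3.18 and 3.65 with CFIm25 knockdown, 1.91, 2.51 and 2.75 with CFIm68 knockdown, 1.93, 2.32 and 2.55 in CFIm25 overexpression and 0.780, 0.0557 and 0.753 in CFIm68 overexpression. The knockdown and CFIm25 overexpression libraries lay above control and those of CFIm68 overexpression below it. The low value of 0.0557 is 1 count, while the other libraries of that group had 12 counts each. PSMB9 was 2.81-fold higher in CFIm25 knockdown (1.49 ± 0.28, adjusted p = 6.5e-05) and 1.93-fold higher in CFIm68 knockdown (0.95 ± 0.27, adjusted p = 0.0042). In CFIm25 overexpression it rose by 0.87 ± 0.29 (adjusted p = 0.012), a call lost without control replicate 1 (0.76, adjusted p = 0.051) or 3 (0.74, adjusted p = 0.060). Its fall of 1.26 ± 0.41 in CFIm68 overexpression (adjusted p = 0.022) was -0.67 (adjusted p = 0.18) without CFIm68 overexpression replicate 2 and -0.98 (adjusted p = 0.12) without control replicate 2. Exons of PSMB9 share bases with PSMB8-AS1 on the same strand and with PSMB8 on the other.

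PSMB8, the immunoproteasome subunit LMP7, had 7 to 27 counts per library and did not pass in any comparison. B2M, the light chain of every MHC class I molecule, had 193, 185 and 200 CPM in control and 159, 154 and 143 in CFIm25 overexpression, without overlap. It fell there by 0.34 ± 0.05 (adjusted p = 2.9e-06), and its changes with CFIm25 knockdown, CFIm68 knockdown and CFIm68 overexpression were 0.01, 0.13 and 0.09. The second of these passed (adjusted p = 0.031) but was lost without 4 of the libraries, in turn, the largest adjusted p being 0.14 without control replicate 2, and with neighbour medians removed (0.09, adjusted p = 0.14). TAP1, which carries peptides into the endoplasmic reticulum, had 64.5, 67.0 and 71.0 CPM in control, 57.2, 57.3 and 58.8 in CFIm68 knockdown and 58.1, 61.9 and 58.0 in CFIm25 overexpression. Both groups lay below control, with falls of 0.23 ± 0.06 (adjusted p = 0.0031) and 0.19 ± 0.06 (adjusted p = 0.014). The 50 genes around TAP1 had medians of -0.21 and -0.27 there, and with these removed the changes of TAP1 were -0.02 (adjusted p = 0.84) and 0.08 (adjusted p = 0.28). The second call was also lost without control replicate 3 (adjusted p = 0.073) or CFIm25 overexpression replicate 1 (adjusted p = 0.051).

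The 2 knockdowns were compared directly, and so were the 2 overexpressions. In both, the share of members called in either direction lay near that of all genes. With CFIm68 knockdown against CFIm25 knockdown, 3 members were called higher and 3 lower, and 26 were not called, beside 11.1% and 13.2% of all genes, and 24.2% in either direction against 18.8% of the members. Libraries did not overlap for 12 members and for 56.3% of all genes. The largest difference that passed was that of IRF9, higher with CFIm68 knockdown by 0.45 ± 0.12 (adjusted p = 0.0078), a call lost without CFIm25 knockdown replicate 1 (adjusted p = 0.088). IFI6 was higher by 0.40 ± 0.09 (adjusted p = 0.0019), and TRIM25 was lower by 0.36 ± 0.06 (adjusted p = 1.1e-04). BST2 differed by 0.25 ± 0.11 (adjusted p = 0.10) and OAS3 by 0.02 ± 0.08 (adjusted p = 0.89). PARP9, STAT2 and RIGI also passed, at 0.26, -0.23 and -0.25. The calls of PARP9 and RIGI were lost without any 1 of the libraries compared, and that of PARP9 with DESeq2 (adjusted p = 0.072). Without each CFIm68 knockdown library in turn, the adjusted p was 0.065 to 0.15 for PARP9 and 0.071 to 0.094 for RIGI. Without CFIm25 knockdown replicate 2 the changes of PARP9, STAT2 and RIGI were 0.22, -0.19 and -0.23. The call of STAT2 was lost there and without CFIm68 knockdown replicate 1 (adjusted p = 0.074). It was also lost with neighbour medians removed (-0.16, adjusted p = 0.074).

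Between CFIm68 and CFIm25 overexpression, 8 members were higher and 13 were lower, beside 32.9% and 30.8% of all genes, and 63.7% in either direction against 65.6% of the members. The median of the members was -0.21 and that of all genes 0.01. OAS3 was 4.55-fold lower with CFIm68 (-2.18 ± 0.10, adjusted p = 3.7e-17), IFI35 was 3.31-fold lower (-1.73 ± 0.16, adjusted p = 1.4e-10) and PSMB9 was 4.37-fold lower (-2.13 ± 0.36, adjusted p = 8.9e-06). OASL was lower by 2.55 ± 0.44 in the fit (adjusted p = 1.1e-05), and PARP9 was 1.87-fold lower (-0.91 ± 0.10, adjusted p = 8.2e-09). Each library of CFIm68 overexpression was below each library of CFIm25 overexpression for these 5 genes, and libraries did not overlap for 20 members in all, beside 63.8% of all genes. In the other direction, IFITM3 was 3.85-fold higher (1.95 ± 0.23, adjusted p = 3.3e-08), IFITM1 was 2.42-fold higher (1.28 ± 0.13, adjusted p = 1.0e-09) and IFITM2 was 1.99-fold higher (0.99 ± 0.17, adjusted p = 1.2e-05) with CFIm68. With neighbour medians removed these were 1.40, 0.72 and 0.44. IRF9 was 1.497-fold higher (0.58 ± 0.11, adjusted p = 2.8e-05) and STAT2 1.25-fold higher (0.33 ± 0.06, adjusted p = 3.3e-05) with CFIm68. BST2 differed by 0.17 ± 0.12 (adjusted p = 0.24), so a difference was not detected there. Among members called before or after the neighbour medians were removed, the sign of this comparison turned for 6. These were IRF3, SAMHD1, PARP14, EIF2AK2, TAP1 and ADAR, all with changes of at most 0.41 in size.

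**Figure D4:**
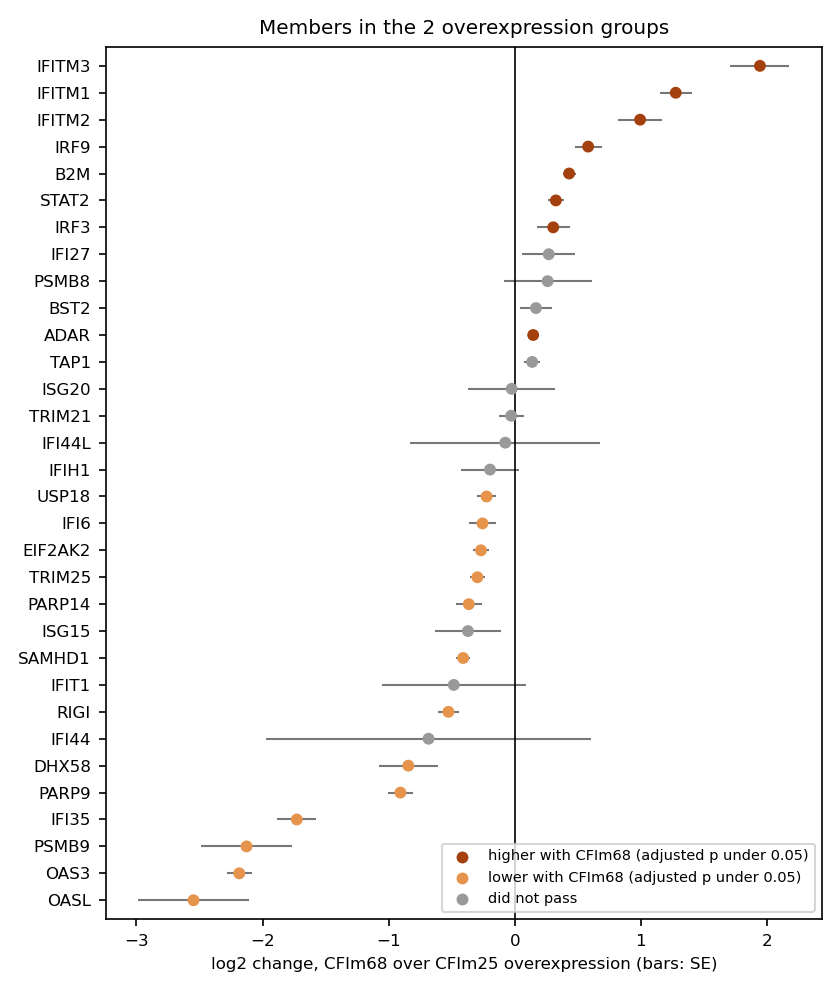
Log2 change of each tested member between CFIm68 and CFIm25 overexpression, with bars for the SE, sorted by value and coloured by whether the adjusted p was under 0.05. The points run from -2.55 for OASL to 1.95 for IFITM3.

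Levels per kilobase of exon place the members on a common scale, as CPM per kb averaged over the 14 libraries. ADAR was the most abundant at 87.5, followed by B2M at 31.4, SAMHD1 at 14.2 and USP18 at 14.1. BST2 stood at 2.78 in control and 11.6 in CFIm68 knockdown, OAS3 at a mean of 2.09, and PSMB9 at a mean of 0.606. The highest and lowest group means differed 1.11-fold for ADAR, 4.17-fold for BST2, 4.56-fold for OAS3 and 6.45-fold for PSMB9. Of the tested members, IFI44 and IFI44L had the widest spans, at 0.159 and 0.0828 CPM per kb on average, and that of IFI44 rests on 1, 1 and 0 counts in its lowest group. Of the members not tested, IFIT2 was at 0 in every control library and IRF7 in every CFIm25 overexpression library, so that their spans have no upper bound.

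**Figure D5:**
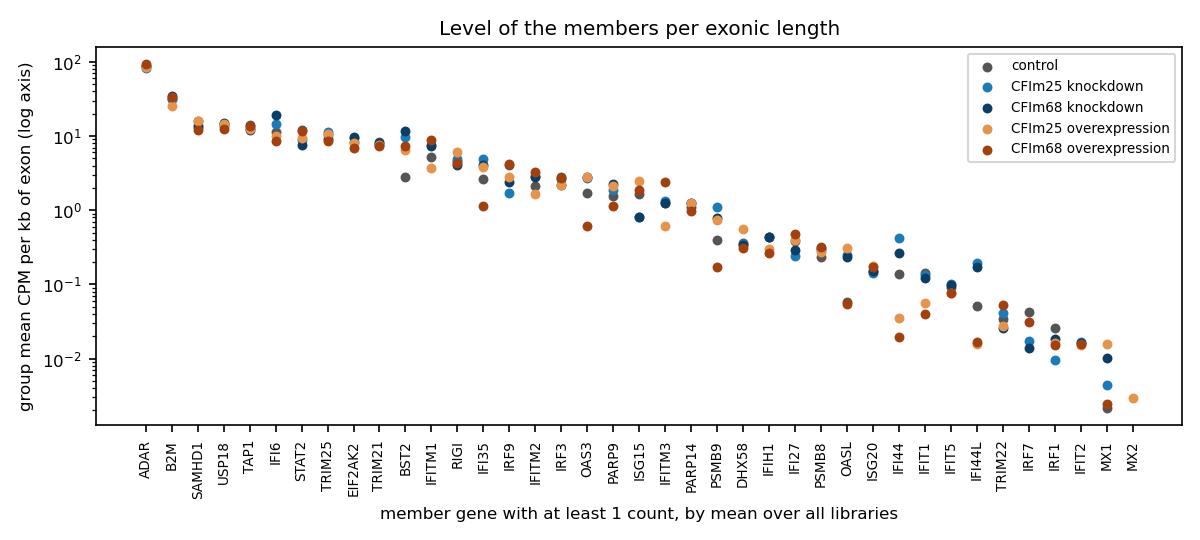
Group mean CPM per kb of exon (log axis) for the members with at least 1 count, ordered by the mean over all libraries, with 1 colour per group. ADAR stands highest at a mean of 87.5, and the spread between groups for BST2 runs from 2.78 to 11.6.

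The genes around the list show how the rest of the pathway stood. None of the 9 interferon and chemokine genes analysed passed the filter, and the highest count of any of them in a library was 6, for CXCL10. IFNB1, also on that list, was not analysed here. Of 17 tested receptor and JAK-STAT genes, 4 rose and 3 fell with CFIm25 knockdown, 4 and 6 with CFIm68 knockdown, 2 and 6 with CFIm25 overexpression and 1 and 4 with CFIm68 overexpression. Called in either direction were 41.2%, 58.8%, 47.1% and 29.4% of them, beside 47.6%, 56.4%, 56.7% and 29.8% of all tested genes. Over all tested genes 24.4%, 28.3%, 27.7% and 14.5% rose and 23.2%, 28.1%, 29.1% and 15.4% fell. IFNAR1, a chain of the type I interferon receptor, rose by 0.51 (adjusted p = 4.3e-07) and 0.67 (adjusted p = 2.1e-10) in the CFIm25 and CFIm68 knockdowns and fell by 0.35 (adjusted p = 2.0e-05) and 0.24 (adjusted p = 0.0039) in the overexpressions. IFNAR2, the other chain, rose by 0.34 and 0.39 in the knockdowns and fell by 0.28 in CFIm25 overexpression. PTPN1, a phosphatase that dampens JAK signalling, rose by 0.46, 0.43 and 0.44 in the knockdowns and CFIm25 overexpression and fell by 0.27 in CFIm68 overexpression. PTPN11, a phosphatase of receptor signalling, fell by 0.56 in CFIm68 knockdown, and IRF8, a transcription factor best known from blood cells, rose by 1.02 in CFIm25 knockdown from a control mean of 0.52 CPM.

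Of 15 tested genes of nucleic acid sensing outside the list, 4 rose and 4 fell with CFIm25 knockdown, 5 and 4 with CFIm68 knockdown, 2 and 6 with CFIm25 overexpression and 4 and 3 with CFIm68 overexpression. Those called made up 53.3%, 60%, 53.3% and 46.7%, beside 47.6%, 56.4%, 56.7% and 29.8% of all tested genes in either direction. IFI16, a sensor of DNA in the nucleus, averaged 12.8 CPM in control, 8.81 with CFIm25 knockdown, 6.84 with CFIm68 knockdown, 1.05 in CFIm25 overexpression and 23.9 in CFIm68 overexpression. Its changes were -0.55, -0.91, -3.58 and 0.90, all past the threshold, and it was higher by 4.48 ± 0.13 in CFIm68 than in CFIm25 overexpression (adjusted p = 2.0e-21). TRAF3, an adaptor of the sensing pathway, rose by 0.56, 0.55 and 0.34 in the CFIm25 and CFIm68 knockdowns and CFIm25 overexpression and fell by 0.19 in CFIm68 overexpression. G3BP1, a stress granule protein, rose by 0.72 and 0.71 in the knockdowns and fell by 0.31 in CFIm25 overexpression.

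Of 28 tested interferon-stimulated genes outside the list, 14 rose and 5 fell with CFIm25 knockdown, 18 and 4 with CFIm68 knockdown, 12 and 7 with CFIm25 overexpression and 3 and 10 with CFIm68 overexpression, with medians of 0.27, 0.37, 0.25 and -0.17. In either direction 67.9%, 78.6%, 67.9% and 46.4% were called, beside 47.6%, 56.4%, 56.7% and 29.8% of all tested genes. Among all tested genes 24.4%, 28.3%, 27.7% and 14.5% rose and 23.2%, 28.1%, 29.1% and 15.4% fell. The differences between these shares were not tested. UBE2L6, the enzyme that conjugates ISG15, averaged 15.97 CPM in control, 41.3 with CFIm25 knockdown, 42.6 with CFIm68 knockdown, 24.4 in CFIm25 overexpression and 13.0 in CFIm68 overexpression. It changed by 1.37, 1.42, 0.60 and -0.29, with adjusted p of 1.0e-13, 2.3e-15, 2.0e-07 and 0.011. IFI30, a lysosomal thiol reductase of antigen processing, changed by 0.77, 0.78, 0.24 and -0.82, and WARS1, the tryptophanyl-tRNA synthetase, by 0.49, 0.42, 0.68 and -0.14, all past the threshold. N4BP1, an RNA-cutting antiviral factor, fell by 0.20 and 0.78 in the knockdowns and rose by 0.21 in CFIm68 overexpression. Among genes with few reads, the GTPase GBP1 rose by 1.69 and 1.04 in the knockdowns, the related GBP2 rose by 1.18 in CFIm68 knockdown and 1.20 in CFIm25 overexpression, and CD274, the checkpoint ligand PD-L1, rose by 0.84 and 1.78 in the knockdowns. TYMP, thymidine phosphorylase, had 4, 21 and 7 reads in the control libraries, 3 and 5 with CFIm25 knockdown and 1, 2 and 1 with CFIm25 overexpression, and was called lower in both.

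Of 16 tested genes of antigen presentation outside the list, 5 rose and 5 fell with CFIm25 knockdown, 4 and 6 with CFIm68 knockdown, 2 and 7 with CFIm25 overexpression and 3 and 3 with CFIm68 overexpression. The shares called were 62.5%, 62.5%, 56.2% and 37.5%, beside 47.6%, 56.4%, 56.7% and 29.8% of all tested genes in either direction. TAP2, the partner of TAP1, rose by 0.33 and 0.23 in the CFIm25 and CFIm68 knockdowns and fell by 0.35 in CFIm68 overexpression. PDIA3, a chaperone of MHC class I assembly, fell by 2.35 ± 0.05 in CFIm68 knockdown (adjusted p = 9.2e-24) against 0.24 ± 0.06 in CFIm25 knockdown, and was lower by -2.10 ± 0.06 in the direct comparison (adjusted p = 9.6e-22). RFXAP, a subunit of the factor that drives MHC class II promoters, fell by 0.83 and 1.14 in the knockdowns and rose by 0.47 in CFIm25 overexpression, and CD74, the MHC class II invariant chain, rose 2.17-fold and 2.65-fold in the knockdowns from a control mean of 0.57 CPM. CALR, the chaperone calreticulin of peptide loading, fell by 0.31 in CFIm25 knockdown and by 0.55 in CFIm25 overexpression on the log2 scale. PSMB10, the third immunoproteasome subunit, fell by 0.38, 0.71 and 0.68 in the knockdowns and CFIm25 overexpression, groups in which PSMB9 rose. PSMB6, the constitutive counterpart that PSMB9 replaces, rose by 0.36 (adjusted p = 2.6e-05) and 0.33 (adjusted p = 1.2e-05) in the knockdowns and fell by 0.17 (adjusted p = 0.024) in CFIm68 overexpression.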

How the data were processed

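RNA-seq counts of 14 HEK 293 libraries were used. The authors deposited raw read counts per gene; per the submitters' processing notes the tools include cutadapt 1.16 and STAR 2.7.1a, with hg38. The sources used here do not give the counting program, its annotation or whether it used strand. Per the labels' protocols, libraries were made with a stranded TruSeq mRNA kit. Members and lists were chosen with earlier results of these data known.

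Counts were fitted with edgeR 4.0.16 in R 4.3.3: filterByExpr (minimum count 10, minimum total 15), TMM factors of 0.973 to 1.05, and 1 quasi-likelihood model with a coefficient for each of the 5 groups, so that the CFIm25 knockdown pair borrows the spread of all groups. The 6 comparisons were tested, with Benjamini-Hochberg adjustment over 12080 genes. Gene positions and exon lengths are from GENCODE 29 on hg38, and promoters are from RefSeq. Levels in every library are given for members that passed with an absolute log2 change of at least 0.5 and a mean of at least 1 CPM. The exceptions are IFI27, IFIH1 and DHX58, given for control and the groups in which they passed against it. Levels of further members, chosen after their values were seen, are given for some groups or all. Of each other list, the rule names the 3 genes with the smallest adjusted p in each knockdown and those that passed with an absolute log2 change of at least 1, and the text names most of them; cell type markers are given as summed levels.

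Replicate numbers were taken from the labels. They were not used to pair libraries. In simulated counts for 12079 genes, 1.5-fold changes were recovered in 81% of cases for CFIm25 knockdown, 83% for CFIm68 knockdown, 73% for CFIm25 overexpression and 74% for CFIm68 overexpression. Per comparison 100 genes were changed by 1.5-fold and 100 by 2-fold, drawn from genes of all levels, and 4 to 11 unchanged genes were called. In the data 29.8% to 56.7% of all tested genes were called against control, so these rates need not hold for the members. Alternatives used DESeq2 1.42.0, limma-voom (limma 3.58.1), median-ratio size factors, other filters, the compared groups alone, the replicate number as a block, removal of neighbour medians, and leaving out each library.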

Additional observations from a re-analysis of the deposited data

How the results depend on the processing

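Of 98 member values that passed in the 6 comparisons, 59 passed in every alternative run for them and 39 were lost in at least 1. Leaving out 1 library at a time gave 8 to 12 members higher in CFIm25 knockdown (13 with all libraries, 8 without its replicate 1) and 2 to 4 lower (2 without its replicate 2). The ranges were 10 to 13 higher and 6 to 7 lower in CFIm68 knockdown, 7 to 9 higher and 7 to 9 lower in CFIm25 overexpression (11 lower with all libraries, 7 without control replicate 3), and 4 higher and 8 to 11 lower in CFIm68 overexpression. Between the knockdowns they were 1 to 2 higher and 1 to 2 lower (3 and 3 with all libraries), and between the overexpressions 7 to 9 higher and 12 to 14 lower. Fitting the compared groups alone gave 5 higher and 6 lower between the knockdowns. Where leaving out a library leaves CFIm25 knockdown with 1, that library is assumed to vary like the other groups.

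Removing the median change of the 50 nearest genes on the chromosome left 7 members lower in CFIm25 overexpression. Among members called before or after this removal, the sign turned for SAMHD1 (-0.27), TAP1 (0.084) and ADAR (0.13) in CFIm25 overexpression. Between the overexpressions it turned for IRF3 (-0.060), SAMHD1 (0.049), PARP14 (0.13), TAP1 (-0.21), EIF2AK2 (0.085) and ADAR (-0.14). The cause was not tested. Libraries with the same replicate number deviated from their group means with correlations of -0.07 to 0.25. The highest were 0.25 for replicate 1 and 0.17 for replicate 3, between the overexpressions. With so few libraries per group, such values cannot show whether the numbers pair libraries. With the replicate number as a block, 13 members were higher and 5 lower in CFIm25 knockdown and 12 higher and 8 lower in CFIm68 knockdown, 0 of 192 values lost their call and 3 gained one. Median-ratio size factors changed 0 of 192 calls. Members under about 1 CPM, such as IFI44, IFI44L, OASL, IFIT1 and PSMB8, had at most 62 counts in a library, which limits the precision of their changes.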
